A study of Mus musculus with 12 samples.

Results

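DNA methylation was examined at 38 genes that build or serve the primary cilium, out of 22367 protein-coding genes annotated on the mouse mm9 assembly by GENCODE M1, in Pkd1 heterozygous renal proximal tubule cells (PKD1-Het cells). The genes were taken by name, as components or known disease genes of the cilium. The choice was made with earlier results of these data known. Each gene was divided into a start region, from 2000 bp upstream to 500 bp downstream of the annotated gene start, and a body, the rest of the gene. In these cells 20 of the 32 start regions that could be tested had under 10% of pooled PBS reads methylated (all genes, 44.5 percent). The median level of these 20 was also low with drug. The bodies of the ciliary genes stood at a median of 54.4% in NP-MTAza and 56.6% in F-MTAza, against 89.0% in PBS.

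The primary cilium is a single antenna that stands on the apical face of tubule cells, and the polycystins, whose loss causes autosomal dominant polycystic kidney disease, reside in its membrane. Intraflagellar transport (IFT) trains carried by kinesin and dynein motors build the cilium, the BBSome moves membrane proteins in and out of it, and the transition zone at its base gates entry. Inherited defects of these parts cause nephronophthisis, Bardet-Biedl, Joubert and Meckel syndromes, in which cystic kidneys are common.

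NP-MTAza cells received 50 µM Aza (5-aza-2′-deoxycytidine, a DNA methyltransferase inhibitor), 300 µM metformin and 10 µM tolvaptan inside micelles, F-MTAza cells received the same drugs and doses free in the medium, Aza cells received 50 µM free Aza alone and PBS cells received buffer, all for 24 h. All cells were Pkd1 heterozygous, had been isolated from Pkd1 flox/- mice carrying a TSLargeT transgene, and were used at passage 3. Each group had 3 libraries of reduced representation bisulfite sequencing, in which MspI fragments (cut at CCGG) are read after bisulfite conversion, and 10 of the 12 libraries were used because Aza replicates 1 and 2 stand apart from the rest. Aza is therefore represented by replicate 3 alone and has values but no test. The labels do not say whether replicates were separate cultures, so the tests measure only the spread between these libraries. The libraries hold no expression values, and a level is the percent of reads over CpGs that were methylated.

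The 10 libraries held between 25336747 and 65817118 reads over CpGs covered at least 5 times, with medians of 7 to 9 reads per CpG. PBS replicate 2, which has the fewest CpGs of the PBS libraries, was the highest of the PBS libraries in 20 of the 32 ciliary start regions and 23 of the 36 bodies that could be tested, and in 63.8% of start regions and 53.5% of bodies over all genes. Start regions of 4 proximal tubule markers were methylated in PBS cells. The PBS mean was 86.8 ± 6.89% for Hnf4a, 84.3 ± 4.82% for Slc22a8, 56.0 ± 3.16% for Ggt1 and 22.8 ± 5.54% for Lrp2 (SD, n = 3). Methylation of a start region does not give expression, so the labelled cell type could be neither upheld nor refused from it.

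The X-box is the DNA element to which RFX transcription factors, which switch on ciliary genes, bind. Searched on both strands of the 300 bases from 250 upstream to 50 downstream of each gene start, an X-box match was found at 6 of the 38 ciliary genes (15.8%), against 1.31% of all coding genes. These 6 matches are shown because they mark the part of the start region with a known ciliary role. They are written 5′ to 3′ on the strand of the gene from mm9, with the X-box in capitals. The windows are chr16:49699312-49699367 (+) for Ift57, which has 2 matches, chr19:4906605-4906634 (-) for Bbs1, chr10:20672366-20672395 (+) for Ahi1, chr5:122714412-122714441 (-) for Tctn1, chr5:125048688-125048717 (+) for Tctn2 and chr19:46647578-46647608 (-) for Arl3.
Ift57 X-box: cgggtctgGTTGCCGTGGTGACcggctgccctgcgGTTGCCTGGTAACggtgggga
Bbs1 X-box: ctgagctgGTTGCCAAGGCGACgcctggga
Ahi1 X-box: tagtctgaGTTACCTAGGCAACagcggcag
Tctn1 X-box: ctgtgactGTTGCCCGGGCAACagacgggc
Tctn2 X-box: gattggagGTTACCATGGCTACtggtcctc
Arl3 X-box: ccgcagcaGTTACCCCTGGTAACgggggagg
The windows of Ift57, Bbs1 and Ahi1 lie across the gene start, that of Tctn1 lies in its first exon, and those of Tctn2 and Arl3 lie just upstream of the gene. A match is a description of the letters and not a site shown to be bound.

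The CpGs in these windows carried no methylated read wherever they were read. The 2 CpGs of the Bbs1 window were unmethylated in 10 and 26 reads of NP-MTAza replicates 2 and 3, in 14 and 16 reads of F-MTAza replicates 2 and 3, in 20 reads of Aza replicate 3 and in 48, 14 and 36 reads of PBS replicates 1, 2 and 3. The CpG of the Ahi1 window was unmethylated in all 10 libraries, with 5 to 18 reads each. The Ift57 window was read only in NP-MTAza replicate 1 (0 of 17 reads methylated) and Aza replicate 3 (0 of 18). The Tctn1 and Arl3 windows hold 2 CpGs each, which were not read, and the Tctn2 window holds no CpG.

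Beyond the X-box, the ciliary promoters were rich in CpGs. The same 300 bases held a median of 20 CpGs, against 11 over all coding genes, and a median GC content of 59.2%, against 55%. The ratio of observed to expected CpGs was above 0.6 in 31 of 38 ciliary promoters (81.6%), against 45.1% of all promoters. Another gene started head to head within 1000 bp of 12 of the 38 (31.6%), against 10.8% of all genes. A CCGG, where MspI cuts, was present in 78.9% of the ciliary windows, against 59.6%. A CCGGAAGT, the core of the site of ETS factors, was found in 3 ciliary windows (7.89%), against 4.69% of all windows, on both strands.

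A sequence of each kind of methylation follows, again 5′ to 3′ on the gene's strand. The 250 bases upstream of Ift172, which encodes a large subunit of the IFT-B train, stand for the unmethylated start regions (chr5:31593488-31593737, minus strand, outside any annotated gene). All of its 20 CpGs are in capitals.
Ift172 upstream of start: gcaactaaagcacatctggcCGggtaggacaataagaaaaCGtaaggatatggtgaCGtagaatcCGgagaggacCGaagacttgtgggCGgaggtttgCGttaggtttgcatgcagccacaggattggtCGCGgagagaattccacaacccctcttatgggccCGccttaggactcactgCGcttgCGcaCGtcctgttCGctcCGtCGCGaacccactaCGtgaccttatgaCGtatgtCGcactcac
Its CpGs were methylated in 0, 0 and 0.664% of reads in NP-MTAza replicates 1, 2 and 3, in 0, 1.19 and 0% in F-MTAza, in 0% in Aza replicate 3 and in 0, 1.69 and 0% in PBS. The groups overlapped, and the level was near 0 in every library over the CpGs that it read. F-MTAza replicates 1, 2 and 3 read only 5, 7 and 4 of the 20 CpGs, on 52, 84 and 28 reads. PBS replicates 1, 2 and 3 read 18, 16 and 18.

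The exceptions among the start regions are shown by 3 stretches upstream of Bbs1, B9d1 and Anks6, in which capitals mark the CpGs that passed the test of single CpGs described further on. The Bbs1 stretch (chr19:4907731-4907864, minus strand) lies from 1237 to 1104 bp upstream of Bbs1, inside the last coding exon and intron of Dpp3, a neighbour on the same strand. The B9d1 stretch (chr11:61317566-61317690, plus strand) and the Anks6 stretch (chr4:47070701-47070809, minus strand) lie outside annotated genes, from 1080 to 956 bp and from 631 to 523 bp upstream.
Bbs1 upstream stretch: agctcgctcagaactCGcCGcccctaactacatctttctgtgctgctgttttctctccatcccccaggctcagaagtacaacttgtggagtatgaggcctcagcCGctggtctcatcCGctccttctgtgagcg
B9d1 upstream stretch: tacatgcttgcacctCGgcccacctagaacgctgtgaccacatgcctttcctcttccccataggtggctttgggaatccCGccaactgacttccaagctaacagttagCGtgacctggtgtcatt
Anks6 upstream stretch: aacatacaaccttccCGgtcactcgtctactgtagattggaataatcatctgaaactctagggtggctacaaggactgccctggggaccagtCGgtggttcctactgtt
The Bbs1 stretch was methylated at 68.0, 67.1 and 39.3% in NP-MTAza replicates 1, 2 and 3, 52.0, 69.2 and 50.0% in F-MTAza, 48.3% in Aza replicate 3 and 97.5, 96.8 and 92.9% in PBS. The B9d1 stretch was methylated at 40.9, 61.3 and 46.4% in NP-MTAza, 63.6, 63.3 and 43.8% in F-MTAza, 64.8% in Aza replicate 3 and 93.4, 96.6 and 98.2% in PBS. Every drug-treated library was below every PBS library at both. The Anks6 stretch was methylated at 90.9, 50.0 and 75% in NP-MTAza, 58.3, 22.2 and 34.5% in F-MTAza, 70.0% in Aza replicate 3 and 100, 95.0 and 100% in PBS, again with no overlap between drug-treated and PBS libraries, on 8 to 61 reads a library. As the stretches were chosen for their called CpGs, these levels describe them and are not further tests.

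The body is shown by a stretch of an intron of Glis3, a GLI-similar transcription factor whose human mutations cause neonatal diabetes with cystic kidneys (chr19:28575019-28575081, minus strand, from 179486 to 179548 bp downstream of the gene start). Capitals mark the 4 of its 6 CpGs that were called lower with NP-MTAza.
Glis3 body stretch: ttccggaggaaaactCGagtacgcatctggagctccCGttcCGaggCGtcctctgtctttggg
It was methylated at 55.1, 50.9 and 68.3% in NP-MTAza replicates 1, 2 and 3, 71.9, 69.4 and 75% in F-MTAza, 60.0% in Aza replicate 3 and 97.1, 100 and 94.8% in PBS. Drug-treated and PBS libraries did not overlap, and F-MTAza was above NP-MTAza in each library of this stretch. The stretch was chosen for its CpGs called lower with NP-MTAza, which favours both patterns. These levels therefore describe it and are not further tests.

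Gene bodies were compared first, to ask how far drug treatment lowered methylation along ciliary genes. A body entered the test where all 10 libraries had at least 3 CpGs, and a difference was called at an adjusted p below 0.05 (limma, Benjamini-Hochberg over 15529 gene bodies) and a size of at least 10 points. Of the 38 genes, 36 could be tested, and Ift20 and Bbs12 could not. With NP-MTAza 35 of the 36 fell (percent called over all genes, 87.1), and with F-MTAza 34 of the 36 fell (all genes, 84.6), and none rose. The median of the ciliary bodies was 54.4% in NP-MTAza, 56.6% in F-MTAza, 54.2% in Aza replicate 3 and 89.0% in PBS. Over all genes these medians were 48.99, 50.7, 47.4 and 77.3%. The median difference from PBS was -32.8 points with NP-MTAza and -31.2 points with F-MTAza, against -27.3 and -25.8 points over all genes. As a share, the ciliary bodies kept a median of 63.7% of their PBS level, near the 64.8% over all genes. In 34 of the 36 bodies all 7 drug-treated libraries were below all 3 PBS libraries (81.2% of all bodies). The adjusted p of the called bodies lay between 8.5e-06 and 0.00934 for NP-MTAza and between 1.21e-05 and 0.0113 for F-MTAza.

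**Figure D1:**
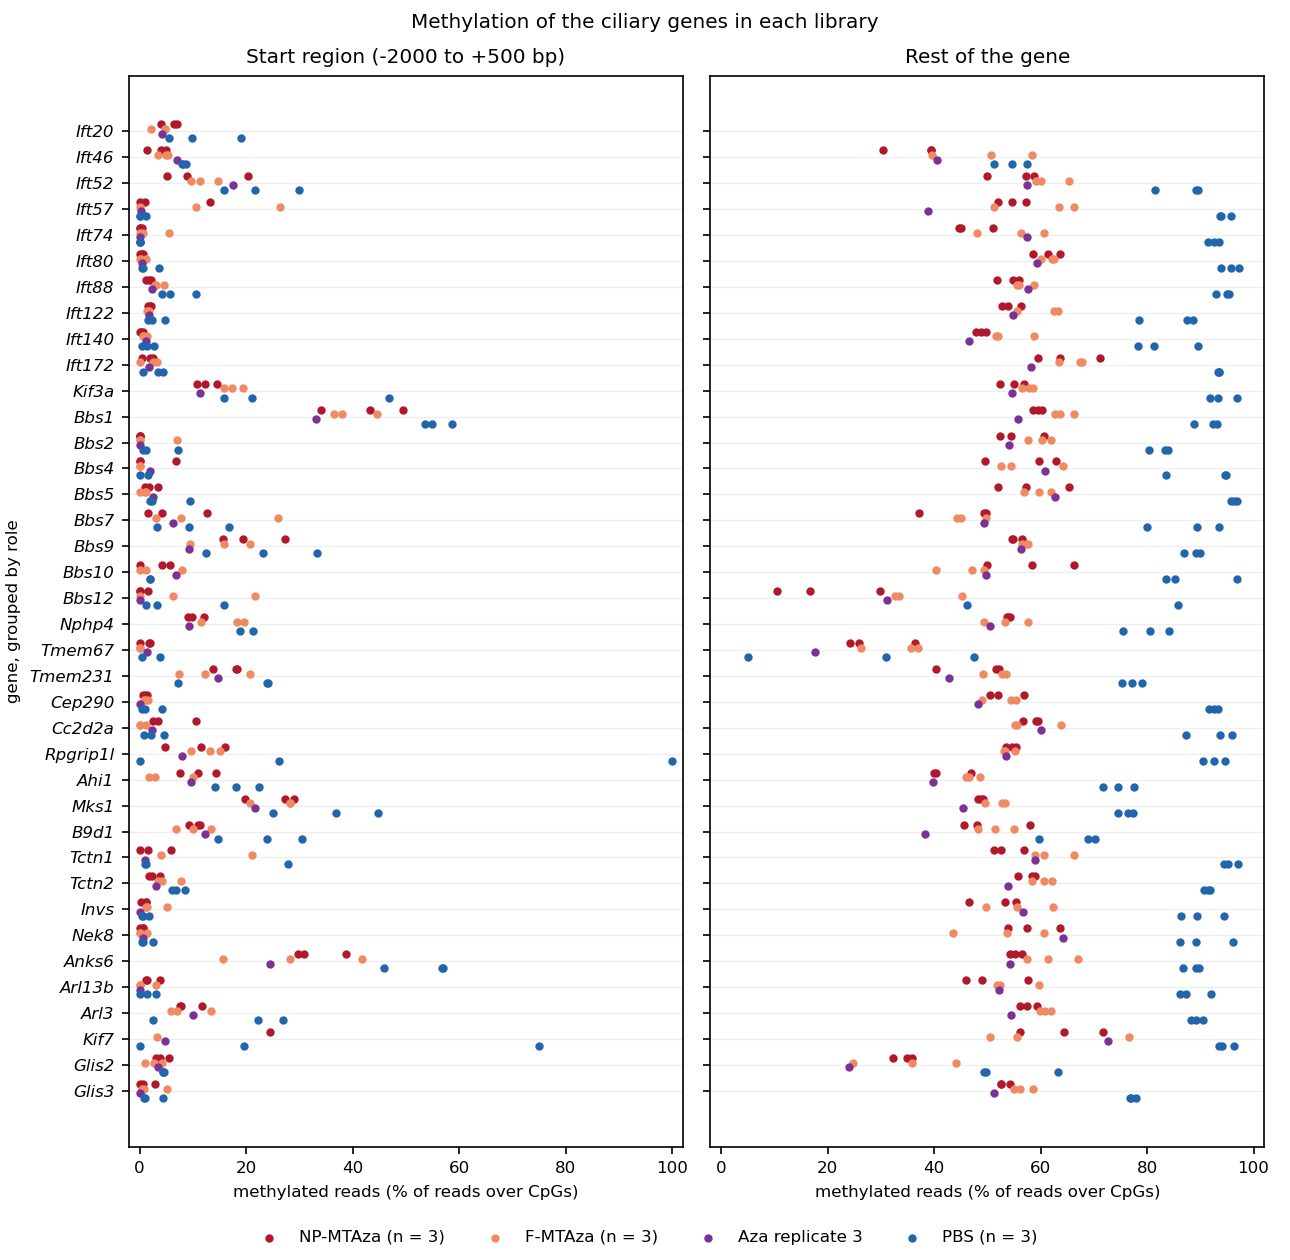
Methylation of the 38 ciliary genes in each of 10 libraries, as the percent of reads over CpGs, with the start region on the left and the rest of the gene on the right. Each point is a library, and the genes run down the page by role. Start regions cluster near 0 in all groups except at genes such as Bbs1 and Anks6, whereas most bodies stand near 90% in PBS and between 40 and 70% in the drug-treated libraries.

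Among the IFT genes, whose products form the trains and their motor, 10 of 11 bodies could be tested. All 10 fell with NP-MTAza and 9 with F-MTAza, and their median level was 54.5% in NP-MTAza, 58.9% in F-MTAza and 93.0% in PBS. Ift74, an IFT-B core subunit that binds tubulin with Ift81, had the deepest NP-MTAza difference, -45.5 points (F-MTAza, -37.5). Its body was at 44.7, 51.1 and 45.1% in NP-MTAza replicates 1, 2 and 3, 56.4, 48.1 and 60.7% in F-MTAza, 57.4% in Aza replicate 3 and 93.6, 92.5 and 91.4% in PBS. Ift88, the gene hit in the Tg737 orpk mouse with polycystic kidneys, was at 55.9, 51.9 and 54.8% in NP-MTAza, 55.9, 55.6 and 58.7% in F-MTAza, 57.6% in Aza replicate 3 and 92.9, 95.0 and 95.4% in PBS, differences of -40.2 and -37.7 points. In both genes the drug-treated libraries lay far below the PBS libraries.

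Kif3a encodes a motor subunit of kinesin-2, which drives trains towards the ciliary tip. Its body was at 55.0, 56.8 and 52.4% in NP-MTAza, 56.5, 58.5 and 57.7% in F-MTAza, 54.7% in Aza replicate 3 and 91.9, 96.9 and 93.4% in PBS, differences of -39.3 and -36.5 points. Ift57, another IFT-B subunit, was at 57.2, 54.5 and 52.0% in NP-MTAza, 66.3, 51.2 and 63.4% in F-MTAza, 38.8% in Aza replicate 3 and 93.6, 95.8 and 93.8% in PBS. No drug-treated library reached a PBS library in either gene, and Aza replicate 3 was the lowest library of Ift57. Ift172 averaged 64.8 ± 5.93% in NP-MTAza, 66.2 ± 2.40% in F-MTAza and 93.5 ± 0.139% in PBS (SD, n = 3 each).

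Ift46 was the exception among the IFT genes. Its body was at 39.5, 30.3 and 39.4% in NP-MTAza, 58.3, 50.6 and 39.7% in F-MTAza, 40.5% in Aza replicate 3 and only 54.7, 57.4 and 51.3% in PBS. NP-MTAza libraries were all below PBS (-18.1 points, limma adjusted p = 0.0079), but F-MTAza libraries overlapped PBS (-4.93 points, adjusted p = 0.374). Further transcripts start within the gene, and with the regions around those starts left out Ift46 was at 58.1, 47.2 and 63.7% in NP-MTAza, 60.0, 73.2 and 60.4% in F-MTAza, 64.1% in Aza replicate 3 and 95.0, 97.3 and 100% in PBS. Over that part of the body no drug-treated library overlapped PBS, and the F-MTAza difference had an adjusted p of 0.000115.

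Of the 8 genes of the BBSome and the chaperonin-like proteins that assemble it, 7 bodies could be tested, and all 7 fell with both combinations. Their median level was 57.4% in NP-MTAza, 57.2% in F-MTAza and 88.7% in PBS. Bbs7, a BBSome subunit, had the largest mean body loss of all the genes compared in both parts. It was at 49.8, 37.3 and 49.4% in NP-MTAza, 45.0, 44.3 and 49.8% in F-MTAza, 49.4% in Aza replicate 3 and 89.3, 93.5 and 80% in PBS, differences of -42.1 and -41.3 points. Bbs5, another subunit, was at 51.9, 65.3 and 57.2% in NP-MTAza, 59.6, 56.8 and 61.9% in F-MTAza, 62.6% in Aza replicate 3 and 96.3, 95.8 and 96.8% in PBS, the highest PBS mean of the 36 bodies. Drug-treated and PBS libraries were separate in both. Bbs10, which belongs to the chaperonin-like group and whose body held 5 to 17 CpGs, averaged 58.3 ± 8.18% in NP-MTAza, 45.7 ± 4.66% in F-MTAza and 88.6 ± 7.27% in PBS (SD, n = 3 each). Bbs12, of the same group, had a body without enough CpGs in PBS replicate 2, and was at 29.8, 10.5 and 16.7% in NP-MTAza, 45.2, 32.7 and 33.3% in F-MTAza, 31.1% in Aza replicate 3 and 46.2 and 85.8% in PBS replicates 1 and 3.

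The transition zone genes had the lowest and most varied PBS levels of the larger groups, with a median of 53.2% in NP-MTAza, 52.9% in F-MTAza and 80.05% in PBS, and 10 of 11 bodies fell with each combination. Cep290, a large coiled-coil protein mutated in human Joubert and Meckel syndromes, was at 52.1, 50.5 and 56.9% in NP-MTAza, 48.9, 54.4 and 55.3% in F-MTAza, 48.3% in Aza replicate 3 and 91.6, 93.3 and 92.5% in PBS, differences of -39.3 and -39.6 points. Rpgrip1l, a scaffold of the transition zone, was at 54.7, 55.3 and 53.4% in NP-MTAza, 53.1, 55.2 and 53.3% in F-MTAza, 53.6% in Aza replicate 3 and 92.6, 94.6 and 90.5% in PBS, with a narrow spread in every group. Neither gene had any overlap between drug-treated and PBS libraries. B9d1, a small protein of the tectonic complex with only 7 to 8 CpGs in its body, was at 58.0, 45.6 and 48.1% in NP-MTAza, 55.0, 48.3 and 51.5% in F-MTAza, 38.3% in Aza replicate 3 and 70.3, 59.6 and 68.8% in PBS. Its differences of -15.7 and -14.7 points were the smallest that were called, with PBS replicate 2 only just above NP-MTAza replicate 1.

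Tmem67, which encodes the transition zone receptor meckelin, was the only body that passed the test in neither combination. It was at 25.9, 24.2 and 36.5% in NP-MTAza, 26.2, 35.7 and 37.0% in F-MTAza, 17.7% in Aza replicate 3 and 31.0, 5.06 and 47.5% in PBS, so that the PBS libraries spanned all drug-treated ones (differences of 1.00 and 5.13 points, adjusted p = 0.751 and 0.504). Away from other transcript starts Tmem67 was at 56.6, 47.7 and 70.2% in NP-MTAza, 45.5, 51.8 and 53.8% in F-MTAza, 56.8% in Aza replicate 3 and 91.8 and 88.2% in PBS replicates 1 and 3, PBS replicate 2 having too few CpGs there for a value. These libraries did not overlap. Over the whole body Tmem67 also missed the test without PBS replicate 2 (-10.4 points with NP-MTAza, limma adjusted p = 0.150, and -6.27 points with F-MTAza, adjusted p = 0.380), where the direction of both differences turned.

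The inversin compartment genes Invs, Nek8 and Anks6, which encode a scaffold, a kinase and its partner that are mutated in nephronophthisis, all fell with both combinations. Invs averaged 51.7 ± 4.58% in NP-MTAza, 55.9 ± 6.35% in F-MTAza and 90.1 ± 4.14% in PBS (SD, n = 3 each). Nek8 averaged 58.3 ± 4.90, 52.6 ± 8.61 and 90.6 ± 5.13% in these groups. The ciliary GTPases Arl13b and Arl3, which load and release lipid-modified cargo, and the Hedgehog kinesin Kif7 also fell with both. Arl13b averaged 50.9 ± 6.07% in NP-MTAza, 54.6 ± 4.37% in F-MTAza and 88.4 ± 3.08% in PBS. Kif7 had a wide spread between drug-treated libraries, at 71.7, 56.1 and 64.3% in NP-MTAza, 76.5, 50.5 and 55.6% in F-MTAza, 72.7% in Aza replicate 3 and 94.05, 96.3 and 93.4% in PBS, without overlap.

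The GLI-similar factors Glis2, mutated in nephronophthisis, and Glis3 had the lowest PBS median of any role (65.7%) and smaller differences. Glis2 was at 35.9, 34.96 and 32.3% in NP-MTAza, 44.1, 24.7 and 35.9% in F-MTAza, 24.0% in Aza replicate 3 and 49.7, 63.3 and 49.4% in PBS, differences of -19.7 and -19.2 points. Glis3 was at 54.3, 52.5 and 52.7% in NP-MTAza, 56.1, 55.0 and 58.7% in F-MTAza, 51.2% in Aza replicate 3 and 76.9, 76.9 and 77.9% in PBS, differences of -24.1 and -20.7 points. Both genes were separate from PBS in all drug-treated libraries. Both have further transcript starts within the body, and away from them Glis3 was at 60.5, 59.6 and 59.0% in NP-MTAza, 63.0, 61.0 and 62.5% in F-MTAza, 58.6% in Aza replicate 3 and 91.2, 92.4 and 92.8% in PBS. Glis2 away from them was at 50.6, 47.5 and 43.9% in NP-MTAza, 53.8, 33.8 and 42.5% in F-MTAza, 30.9% in Aza replicate 3 and 67.3, 78.1 and 66.1% in PBS.

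**Figure D2:**
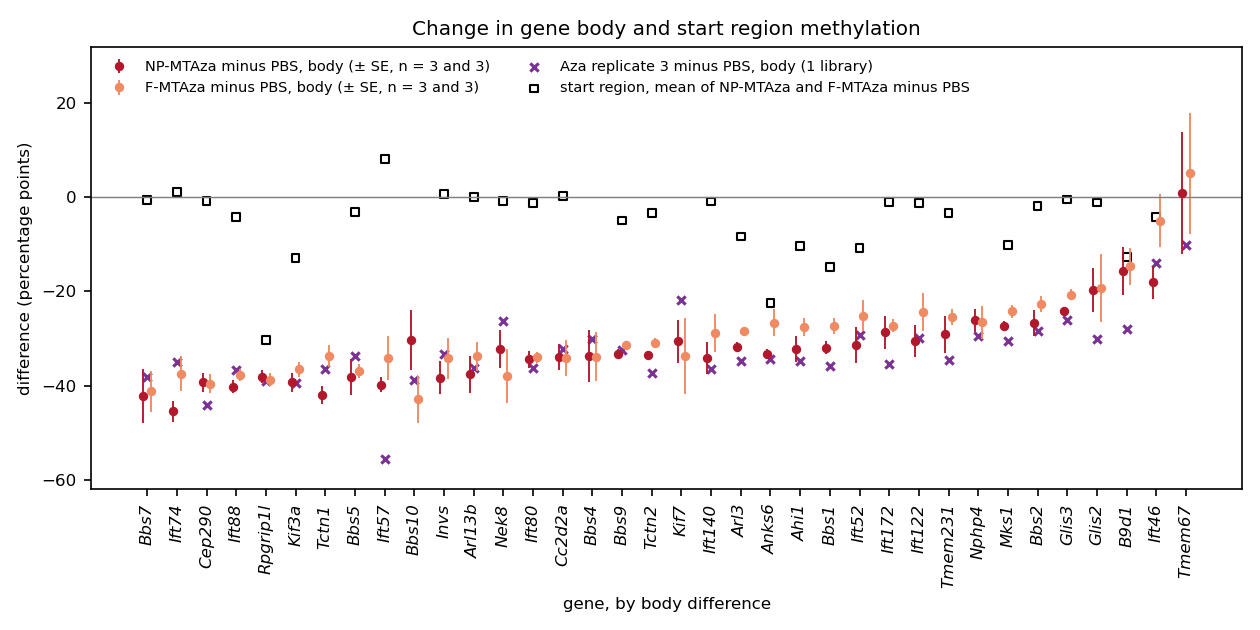
Difference in methylation from PBS, in percentage points, for 36 ciliary genes ordered by their body difference from the largest loss on the left. Circles with SE bars (n = 3 and 3) give the body with NP-MTAza and F-MTAza, crosses Aza replicate 3, and open squares the start region averaged over both combinations. Bodies lie between -45.5 and 5.13 points for the combinations, while most start regions lie near 0.

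When the stretches around other transcript starts were left out of all genes, 33 ciliary bodies could be tested and all 33 were below PBS in every drug-treated library (all genes, 88.0 percent). Their median was 55.5% in NP-MTAza, 58.7% in F-MTAza, 54.8% in Aza replicate 3 and 91.8% in PBS, and each kept between 54.2 and 70.4% of its PBS level (median 62.9%, against 64.3% over all genes). Exons and introns of the bodies did not differ much in level when summed over genes, but in single genes they could differ either way. In PBS exons and introns averaged 56.3 and 91.3% at Bbs2, and 92.5 and 72.2% at Tmem231. Summed over the 38 genes, exonic CpGs were at 54.8 ± 0.925% in NP-MTAza, 57.7 ± 1.29% in F-MTAza, 52.9% in Aza replicate 3 and 83.6 ± 0.551% in PBS. Intronic CpGs were at 53.7 ± 0.535%, 56.3 ± 0.972%, 51.6% and 84.5 ± 1.26% in the same groups (SD over 3 libraries).

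Micelle delivery was then set against free delivery. No ciliary body and no start region passed the limma test between NP-MTAza and F-MTAza (percent called over all genes, 0.0 in both directions, for bodies and for start regions). At an unadjusted p below 0.05 there were 2 bodies, Ift46 (-13.1 points) and the tectonic gene Tctn1 (-8.31 points), whose adjusted p was 0.904 and 0.927, and 1 start region, that of the transition zone gene Cc2d2a (5.12 points). A quasi-binomial test of the reads called no body. NP-MTAza was below F-MTAza in 28 of 36 bodies, without any gene passing the test, and the median difference over the 36 was -2.93 points. The body medians over all genes had the same order, 48.99% in NP-MTAza and 50.7% in F-MTAza. Aza replicate 3 lay below both combination means in 20 bodies, between them in 7 and above both in 9, which a single library cannot test. Its median over all genes was 47.4%, also below both combinations. The shares of all bodies in these orders were not counted, so neither order is shown to be particular to ciliary genes.

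Start regions were compared next, to ask whether unmethylated starts accompany the loss along the bodies. Of the 38 start regions 32 could be tested, those of Bbs4, Bbs10, Nphp4, Tmem67, Tctn1 and Kif7 having too few CpGs in some library. In PBS their median was 6.81%, against 16.2% over all genes. With NP-MTAza none was called (all genes, 25 percent called), although 8 had an unadjusted p below 0.05 and the quasi-binomial test called 2. With F-MTAza 4 fell (all genes, 22.9 percent called), 6 had an unadjusted p below 0.05 and the quasi-binomial test called none. None rose with either. A call needs a fall of at least 10 points, which a start region under 10% can hardly reach. As 20 of the 32 were under 10% in pooled PBS reads (all genes, 44.5 percent), most could hardly be called lower. The counts called are therefore not compared like for like with the shares over all genes. The median difference was -2.72 points with NP-MTAza and -2.14 points with F-MTAza, against -5.73 and -5.12 points over all genes. All 7 drug-treated libraries were below all 3 PBS libraries in 4 of 32 start regions (all genes, 30.5 percent). Both counts depended on single libraries. With NP-MTAza 3 were called without PBS replicate 3 and 1 without F-MTAza replicate 1 or 3 or NP-MTAza replicate 1. With F-MTAza 0 were called without PBS replicate 1, PBS replicate 2 or F-MTAza replicate 1, 1 without F-MTAza replicate 2 or 3, and 2 without NP-MTAza replicate 2.

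In 20 of these start regions fewer than 10% of the pooled PBS reads were methylated (all genes, 44.5 percent), and their differences were small. They belong to Ift20, Ift46, Ift57, Ift74, Ift80, Ift88, Ift122, Ift140, Ift172, Bbs2, Bbs5, Bbs12, Cep290, Cc2d2a, Tctn2, Invs, Nek8, Arl13b, Glis2 and Glis3. Their median level was 1.68% in NP-MTAza, 2.10% in F-MTAza, 0.840% in Aza replicate 3 and 2.70% in PBS, and their differences had medians of -1.05 points with NP-MTAza (from -6.23 to 4.34) and -0.833 points with F-MTAza (from -7.62 to 11.9). The bodies of 18 of these genes could be tested, and all 18 fell with NP-MTAza and 17 with F-MTAza, by medians of 34.1 and 33.9 points. Those bodies stood at medians of 54.3% in NP-MTAza, 56.6% in F-MTAza, 54.5% in Aza replicate 3 and 90.9% in PBS. Ift74 gives the contrast in a single gene, with a start region of 0.163 ± 0.282% in NP-MTAza, 2.06 ± 3.04% in F-MTAza and 0% in all PBS libraries and a body that lost 45.5 and 37.5 points. A start region under 10% has little methylation to lose, so the contrast in points also reflects the level in PBS.

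The 12 other start regions, at 10% or more of pooled PBS reads, belong to Ift52, Kif3a, Bbs1, Bbs7, Bbs9, Tmem231, Rpgrip1l, Ahi1, Mks1, B9d1, Anks6 and Arl3. Nearest the limit were Arl3 at 11.6% inside and Ift20 at 9.17% outside. Their median level was 12.0% in NP-MTAza, 13.1% in F-MTAza, 11.9% in Aza replicate 3 and 23.0% in PBS, a median difference of -10.6 points with NP-MTAza and -10.5 points with F-MTAza. The combination mean was a median of 55.9% of the PBS mean. The 12 were picked by their level in the same PBS reads, which favours a lower level in the drug groups. These medians are therefore descriptions, as are the counts that follow. NP-MTAza was below PBS on average in all 12 and F-MTAza in 11, but only the 4 described next passed the test, all with F-MTAza.

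Anks6 had the largest called start difference, -24.7 points with F-MTAza (limma adjusted p = 0.0276), and -20.1 points with NP-MTAza (adjusted p = 0.065). Its start region was at 29.7, 30.9 and 38.8% in NP-MTAza, 15.6, 28.3 and 41.7% in F-MTAza, 24.5% in Aza replicate 3 and 56.9, 56.8 and 45.9% in PBS. Bbs1, which couples the BBSome to its GTPase Arl6, was at 49.4, 43.2 and 34.1% in NP-MTAza, 38.1, 44.5 and 36.4% in F-MTAza, 33.0% in Aza replicate 3 and 53.6, 54.9 and 58.7% in PBS (-16.05 points with F-MTAza, adjusted p = 0.0426, and -13.5 points with NP-MTAza, adjusted p = 0.076). B9d1 was at 9.32, 10.9 and 11.4% in NP-MTAza, 6.83, 13.4 and 9.97% in F-MTAza, 12.3% in Aza replicate 3 and 24.0, 30.5 and 14.6% in PBS (-12.97 points with F-MTAza, adjusted p = 0.0446, and -12.5 points with NP-MTAza, adjusted p = 0.054). In these 3 genes no drug-treated library reached a PBS library. The test of NP-MTAza against F-MTAza called none of them, so the combinations are not shown to differ there.

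Ahi1, the Joubert syndrome gene jouberin, was at 14.3, 7.61 and 11.0% in NP-MTAza, 1.79, 10.1 and 2.86% in F-MTAza, 9.68% in Aza replicate 3 and 18.1, 22.4 and 14.1% in PBS (-13.3 points with F-MTAza, adjusted p = 0.0199, and -7.24 points with NP-MTAza, adjusted p = 0.236). F-MTAza was below PBS in every library, but NP-MTAza replicate 1 overlapped PBS replicate 3. Over only the CpGs that all 10 libraries had read, the F-MTAza difference of Ahi1 was 0.0340 points, so this call rests on CpGs that some libraries lack. Without PBS replicate 2 the limma adjusted p was 0.0906 for Anks6, 0.126 for B9d1 (difference -9.23 points), 0.069 for Ahi1 and 0.081 for Bbs1.

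The other 8 start regions overlapped PBS in some library and did not pass the test. Kif3a was at 14.5, 12.3 and 10.7% in NP-MTAza, 15.8, 19.4 and 17.4% in F-MTAza, 11.4% in Aza replicate 3 and 21.1, 46.8 and 15.8% in PBS. Ift52, an IFT-B core subunit, was at 20.4, 5.08 and 8.97% in NP-MTAza, 14.8, 9.58 and 11.3% in F-MTAza, 17.5% in Aza replicate 3 and 15.8, 29.9 and 21.6% in PBS. Mks1, mutated in Meckel syndrome, was at 19.8, 28.9 and 27.2% in NP-MTAza, 28.3, 20.8 and 28.2% in F-MTAza, 21.6% in Aza replicate 3 and 44.8, 36.9 and 25% in PBS. In each of these genes the lowest PBS library fell among the drug-treated ones, whereas the highest stood well above them.

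Arl3 was at 11.6, 7.55 and 7.83% in NP-MTAza, 5.97, 7.09 and 13.4% in F-MTAza, 9.99% in Aza replicate 3 and 26.8, 22.2 and 2.55% in PBS. Bbs9, a BBSome subunit, was at 15.7, 27.4 and 19.4% in NP-MTAza, 9.38, 15.8 and 20.8% in F-MTAza, 9.20% in Aza replicate 3 and 33.3, 23.1 and 12.4% in PBS. Tmem231, a transition zone membrane protein, was at 13.7, 18.1 and 18.2% in NP-MTAza, 12.2, 7.41 and 20.7% in F-MTAza, 14.8% in Aza replicate 3 and 24.0, 23.9 and 7.28% in PBS. At Arl3 and Tmem231 PBS replicate 3 was the lowest of the 10 libraries.

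Bbs7 was at 4.19, 1.64 and 12.7% in NP-MTAza, 25.9, 3.14 and 7.69% in F-MTAza, 6.25% in Aza replicate 3 and 9.25, 3.17 and 16.8% in PBS, with complete overlap. Rpgrip1l was at 4.70, 16.05 and 11.6% in NP-MTAza, 15.1, 9.68 and 13.3% in F-MTAza, 7.97% in Aza replicate 3 and 0, 100 and 26.1% in PBS, the value of 100% resting on 3 CpGs of PBS replicate 2. Its start difference of -31.3 points with NP-MTAza is therefore set by a single library and did not pass the test (adjusted p = 0.395).

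The start regions were then divided by distance from the gene start. Windows chosen after the levels had been seen, a core of 500 bp on either side of the start and a flank from 2000 to 500 bp upstream, were read without tests. Pooled over the 38 genes the core was at 5.00 ± 0.608% in NP-MTAza, 5.34 ± 0.745% in F-MTAza, 5.11% in Aza replicate 3 and 8.98 ± 2.11% in PBS, and the flank at 12.6 ± 1.2%, 12.97 ± 0.825%, 11.3% and 21.2 ± 6.15% in the same groups (SD, n = 3, Aza replicate 3 being 1 library). Only 12 genes had a flank value in every library, so the pooled flank rests on few genes. The B9d1 flank was at 31.7, 48.5 and 38.3% in NP-MTAza, 63.6, 50.4 and 48.2% in F-MTAza, 40.4% in Aza replicate 3 and 76.2, 89.1 and 74.7% in PBS, but its core never exceeded 11.4%. The Bbs1 flank, part of which lies in Dpp3, was at 63.0, 62.2 and 52.4% in NP-MTAza, 56.3, 70.9 and 60.8% in F-MTAza, 50.5% in Aza replicate 3 and 97.1, 96.0 and 96.0% in PBS. The Bbs1 core was at 36.1, 31.8 and 25.04% in NP-MTAza, 30.9, 28.4 and 24.2% in F-MTAza, 23.6% in Aza replicate 3 and 34.6, 31.9 and 43.1% in PBS, with overlap. At Bbs1 the groups were thus separate in the flank and not in the core.

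The same layout was seen at Tmem231, whose flank was at 58.5, 74.5 and 62.1% in NP-MTAza, 80, 46.9 and 85.0% in F-MTAza, 43.1% in Aza replicate 3 and 89.4, 87.5 and 97.9% in PBS, over a core between 0 and 4.97%. The Anks6 core was itself partly methylated, at 23.4, 29.2 and 31.7% in NP-MTAza, 0, 25.9 and 39.8% in F-MTAza, 22.6% in Aza replicate 3 and 47.2, 49.3 and 35.6% in PBS. Mks1 showed the reverse order, with a core of 68.5, 70.4 and 73.1% in NP-MTAza, 76.1, 56.8 and 69.8% in F-MTAza, 71.2% in Aza replicate 3 and 82.3, 61.6 and 73.3% in PBS, over 3 to 17 CpGs, and a flank between 9.57 and 29.2%. Its core did not separate drug-treated from PBS libraries. Ahi1 and Bbs9 had too few CpGs for a flank value in PBS. The Ahi1 core averaged 11.0 ± 3.34% in NP-MTAza, 4.52 ± 3.85% in F-MTAza, 9.68% in Aza replicate 3 and 17.9 ± 4.15% in PBS, and the Bbs9 core averaged 14.1 ± 1.37%, 13.8 ± 6.09%, 7.69% and 21.7 ± 8.63% in the same groups (SD, n = 3, Aza replicate 3 being 1 library). In PBS the flank was thus above the core at Bbs1, B9d1 and Tmem231 and below it at Mks1.

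**Figure D3:**
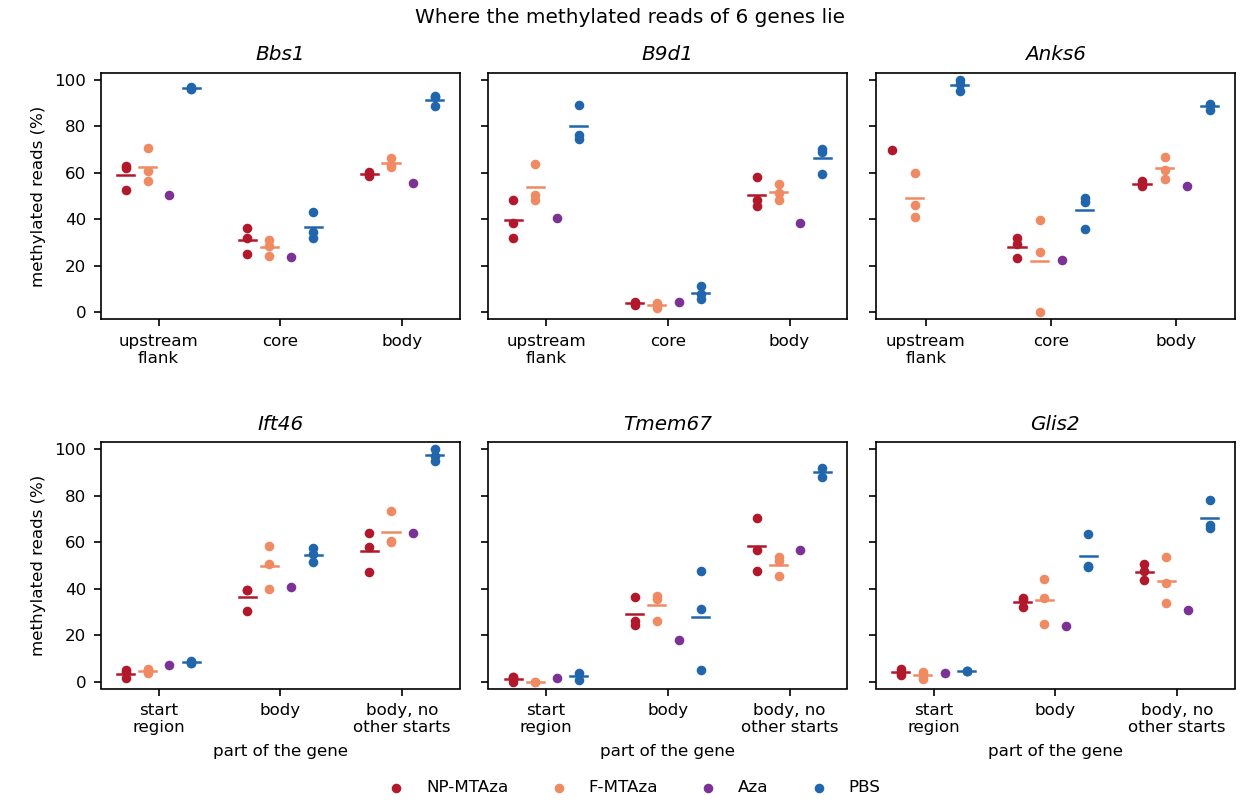
Percent of methylated reads in parts of 6 ciliary genes, each point a library and each line a group mean. The upper panels split the start regions of Bbs1, B9d1 and Anks6 into an upstream flank and a core and add the body, and the lower panels give the start region, the body and the body without other transcript starts of Ift46, Tmem67 and Glis2. The upstream flanks stand between 74.7 and 100% in PBS, and in the bodies of Ift46 and Tmem67 all drug-treated libraries are below PBS only once other starts are left out.

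Along the genes, methylation in PBS fell to its lowest level just downstream of the start and rose again further into the gene. With each CpG counted equally, the ciliary genes were at 2.89 ± 0.665% in NP-MTAza, 3.47 ± 1.08% in F-MTAza, 3.37% in Aza replicate 3 and 6.56 ± 2.12% in PBS from 0 to 500 bp downstream, where all coding genes were at 22.7% in PBS. Between 2000 and 5000 bp downstream they were at 52.1 ± 3.18% in NP-MTAza, 51.7 ± 1.25% in F-MTAza, 52.7% in Aza replicate 3 and 79.1 ± 1.70% in PBS. Beyond 50000 bp they were at 57.3 ± 0.488% in NP-MTAza, 59.4 ± 0.512% in F-MTAza, 56.3% in Aza replicate 3 and 90.4 ± 0.911% in PBS, against 76.4% in PBS over all genes (SD, n = 3). Between 2000 and 1500 bp upstream the ciliary genes stood at 13.9 ± 2.53% in PBS, where all genes stood at 62.8%. That ciliary value rests on 77 to 112 CpGs a library. In the wider flank, Ift80, Nek8, Ift140 and Cep290 each had at least 21 CpGs in every library. Their PBS means there were 1.53, 2.07, 1.64 and 1.89%, and each has a head to head neighbour. Glis2, which has none, was also low (4.83%), whereas Bbs1 and Tmem231, with at most 16 CpGs, averaged 96.4 and 91.6%. The upstream average leans on genes with many CpGs and is not shown to hold gene by gene. Averaged over CpGs, the ciliary genes were thus less methylated than all genes around their starts and more methylated beyond them in PBS cells. No test was made of this description.

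**Figure D4:**
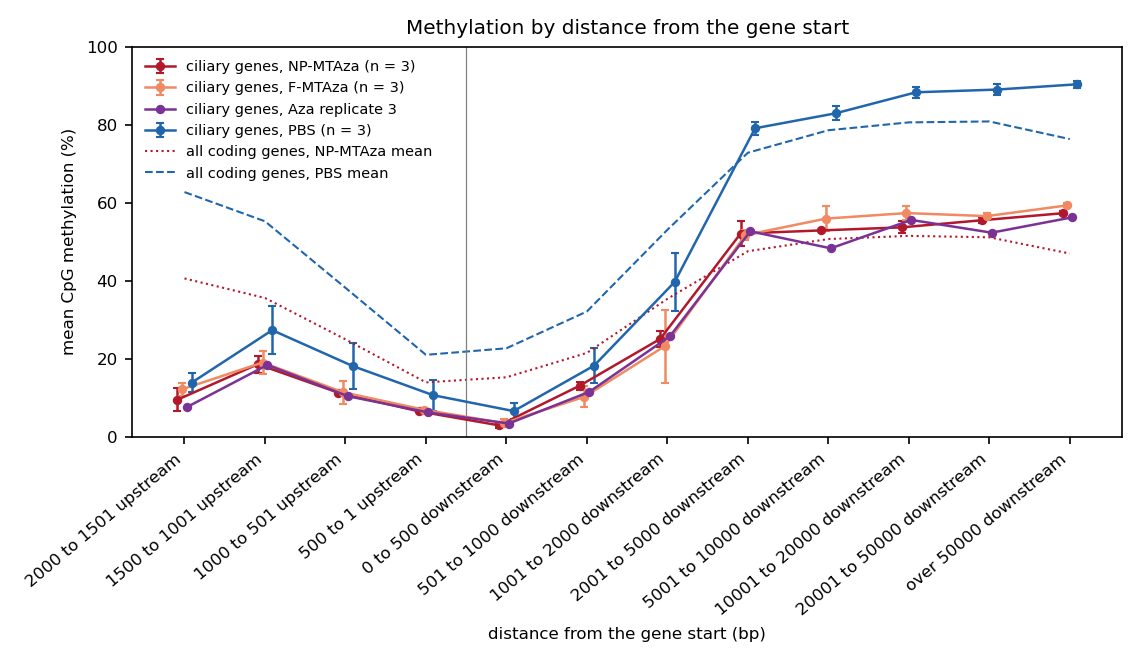
Mean CpG methylation by distance from the gene start, with solid lines for the ciliary genes (points are means over 3 libraries with SD bars, Aza being replicate 3 alone) and broken lines for all coding genes. The PBS line of the ciliary genes lies at 6.56% just downstream of the start and at 90.4% beyond 50000 bp, and the drug-treated lines level off between 48.3 and 59.4% beyond 2000 bp.

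The gap between body and start region was tested within each gene and library. It narrowed in 26 of 30 genes with NP-MTAza (all genes, 44.9 percent called) and in 23 of 30 with F-MTAza (all genes, 43.5 percent called), and widened in none. The gap of Ift74 averaged 46.8 points in NP-MTAza, 53.0 points in F-MTAza and 92.5 points in PBS. The gap of Cep290 averaged 52.2, 51.8 and 90.6 points in these groups, and that of Ift57 49.9, 48.0 and 94.03 points. With NP-MTAza the gap did not pass the test at Ift46, Rpgrip1l, B9d1 and Anks6, whose NP-MTAza means were below PBS in both parts. With F-MTAza it also did not pass at Ift52, Bbs1 and Mks1. Since the start regions were low in all groups, a narrower gap mostly restates the loss in the bodies.

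Single CpGs were tested on pooled reads at a q below 0.01 and a difference of at least 35 points. Within the ciliary genes 438 of 1560 CpGs fell with NP-MTAza (all CpGs, 25.9 percent called) and 262 of 1008 with F-MTAza (all CpGs, 22.0 percent called), and none rose. The split by body and start region below was not made over all genes. It is therefore not shown to be particular to ciliary genes. Of the body CpGs 424 of 1131 (37.5%) fell with NP-MTAza and 255 of 724 (35.2%) with F-MTAza. A CpG below 35% in PBS cannot be called lower. The core of the start regions, 500 bp on either side, was at 8.98 ± 2.11% in PBS, so many start CpGs could not be called. A contrast between body and start region CpGs is therefore partly set by this threshold. Of the start region CpGs 14 of 429 (3.26%) and 7 of 284 (2.46%) fell. With NP-MTAza these 14 lay at Bbs1 (7), B9d1 (5), Ift20 (1) and Ift46 (1), and with F-MTAza the 7 lay at Bbs1 (4), Anks6 (2) and Ift20 (1). The start CpG of Ift20, 1338 bp upstream, was at 55.8% in NP-MTAza and 59.3% in F-MTAza, against 98.8% in PBS. That of Ift46, 320 bp downstream, was at 21.6% in NP-MTAza, against 57.7% in PBS.

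Glis3, which spans 421227 bp and has the most CpGs read, had the most calls, 69 of 205 body CpGs with NP-MTAza and 45 of 164 with F-MTAza, and none of its 16 and 15 start CpGs was called. The called CpGs of Glis3 ran from 3229 to 408919 bp downstream of the start with NP-MTAza, at a median of 54.2% in NP-MTAza and 97.5% in PBS. With F-MTAza they ran from 3358 to 398927 bp, at a median of 54.8% in F-MTAza and 97.7% in PBS. These CpGs were picked for a fall of at least 35 points in the same reads, so the medians describe them and are not further tests. Over the whole Glis3 body the differences, given above, were smaller. Bbs9 had 44 called body CpGs with NP-MTAza, Tctn2 34, Nphp4 33 and Arl3 27.

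**Figure D5:**
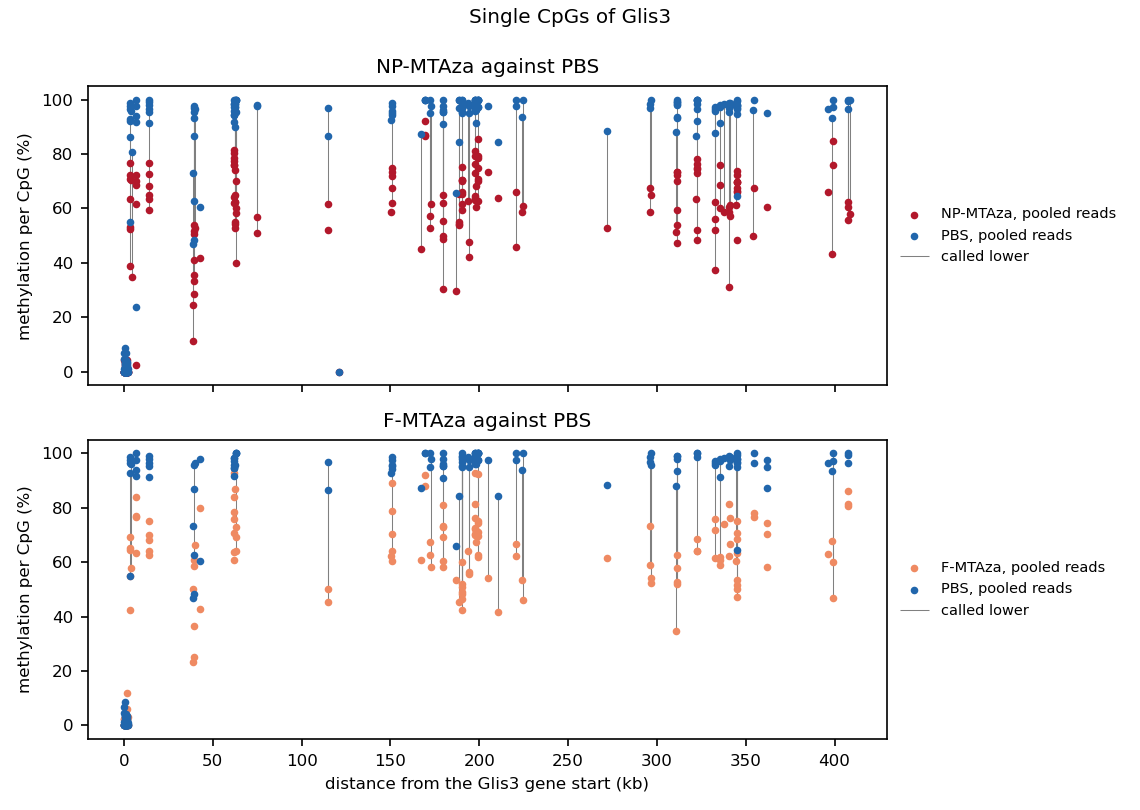
Methylation of single CpGs of Glis3 by distance from the gene start in kb, from reads pooled over 3 libraries per group, with NP-MTAza and PBS in the upper panel and F-MTAza and PBS in the lower. Grey lines join the CpGs called lower, 69 and 45 of them. CpGs at the start lie near 0 in both groups, while those along the gene lie mostly above 90% in PBS.

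Of 45 further genes of the primary cilium on the annotation, 40 bodies could be tested, of which 38 fell with NP-MTAza and 37 with F-MTAza, by medians of 30.9 and 29.6 points over the tested bodies. Over all genes, 87.1 percent of bodies were called lower with NP-MTAza and 84.6 percent with F-MTAza. Kifap3, the non-motor subunit of kinesin-2, was at 51.4% in NP-MTAza, 55.4% in F-MTAza and 91.2% in PBS. The start regions of these further genes had a PBS median of 7.95% (all genes, 16.2%), with 21 of 36 under 10%. Of the 36, 3 were called with NP-MTAza (all genes, 25 percent) and 4 with F-MTAza (all genes, 22.9 percent). A start region under 10% can hardly fall by the 10 points that a call needs, which limits this comparison. Of 10 RFX and other regulators of ciliary genes, 9 bodies fell with NP-MTAza and 10 with F-MTAza, and 2 of 9 start regions fell with each combination. These counts are near the shares called over all genes. In PBS 5 of the 9 start regions were under 10%, whereas those of Myb (53.4%), Rfx6 (53.2%), Rfx4 (52.5%) and Rfx2 (30.2%) were partly methylated.

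The lists of other cilia and of the pathway read out by the cilium had more methylated starts. Start regions of motile cilium genes, which serve beating cilia that tubule cells lack, had a PBS median of 57.6%. Of these 15 start regions 5 fell with NP-MTAza and 7 with F-MTAza (all genes, 25 and 22.9 percent). Of the 21 bodies of motile cilium genes 20 and 21 fell (all genes, 87.1 and 84.6 percent). Hedgehog pathway genes had a PBS start median of 41.4%, with 5 of 14 start regions lower in each combination, and 16 of 17 bodies fell with both. The body count is near the share called over all genes.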

How the data were processed

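The authors deposited, for each library and each CpG covered at least 5 times, the percent of methylated reads, beside the methylated and total reads. Per the submitters' processing notes and the study's methods, trimming used Trim Galore 0.4.4 and alignment to mm9 used Bismark 0.20.1 with Bowtie2. Levels were computed here by summing those reads over the start region (2000 bp upstream to 500 bp downstream) or the body of each GENCODE M1 gene, with at least 3 CpGs in each of 10 libraries. Aza replicates 1 and 2 were left out.

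The arcsine square root of each level was fitted with limma 3.58.1 (robust eBayes, R 4.3.3) in 1 model of 4 groups with 6 residual degrees of freedom, Benjamini-Hochberg adjusted over all genes. A call needed an adjusted p below 0.05 and 10 points. The gap was fitted in points. Single CpGs read in all 6 libraries were tested by a likelihood ratio test of reads summed per group, the default of methylKit, which ignores the spread between libraries. Python 3.11.15 and scipy 1.17.1 were used. Reads copied by PCR are not independent molecules.

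All 38 genes could be named, with values in every library for the 8 largest and 4 smallest mean body losses among genes with both parts, for start regions at 10% or more of pooled PBS reads or called, and up to 3 genes of other lists. Kif7, Tmem67 and Bbs12 bodies and the windows of core and flank were added after their values were seen. The members and lists were chosen with earlier results of these data known. Sequences were read from the mm9 genome. The tests were tried on simulated data. Alternatives changed the scale, the test, the CpG and read minimums, the weighting, the libraries and the minimum difference. Glis3 has 2 gene records, of which the longer was used. Of the proximal tubule markers, 1 is not reported here.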

Additional observations from a re-analysis of the deposited data

Results flagged for a closer look

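Aza replicates 1 and 2, which no comparison used, carried methylated reads at ciliary start regions that were low in most other libraries. The median start region level of the ciliary genes was 45.7% in Aza replicate 1 and 52.6% in Aza replicate 2, against 2.81% in Aza replicate 3 and 4.33, 8.57 and 2.55% in PBS replicates 1, 2 and 3. Their median body levels were 41.5% and 49.2%, against 54.1% in Aza replicate 3 and 89.2, 91.1 and 87.4% in PBS replicates 1, 2 and 3. In each of them 99.77% of the listed positions fell on CpGs of mm9, the lowest shares of the 12 libraries. The cause was not tested.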

How the results depend on the processing

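The body counts stayed within 1.5 times under every alternative run. They were 35 to 36 with NP-MTAza and 34 to 35 with F-MTAza when a library was left out, 37 bodies being testable without PBS replicate 2, and lowest with 10 reads per CpG (25 and 24 of 26). The start region counts did not. With NP-MTAza, where none was called, the quasi-binomial test and the CpGs read in all 10 libraries gave 2, and a minimum of 5 CpGs and equal weight for each CpG gave 1. With F-MTAza, where 4 were called, M values, a minimum of 10 reads per CpG and libraries of 1 barcode set gave 1, equal weights gave 2, and the quasi-binomial test and all 12 libraries gave 0. Leaving out a library gave 0 to 3 start calls with NP-MTAza and 0 to 4 with F-MTAza. The F-MTAza difference of the Ahi1 start region was 0.0340 points over the CpGs read in all 10 libraries, the opposite direction to the -13.3 points over all its CpGs. Narrower gaps numbered 10 (NP-MTAza) and 9 (F-MTAza) with 10 reads per CpG, 15 and 14 over the CpGs read in all 10 libraries, and 0 and 0 with all 12 libraries. Called single CpGs numbered 161 and 76 with 10 reads, and 765 and 460 with a threshold of 25 points. An F test gave 0 and 0, since its 4 degrees of freedom cannot reach the threshold, and the same deviance scaled by the extra spread, an alternative added after seeing the data, gave 382 and 235.

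With the replicate number as a block (replicate block) 2 start regions were called with F-MTAza, and no other count moved by over 1.5 times. Libraries sharing a number did not deviate together, with correlations between -0.122 and 0.028 for bodies and between -0.081 and 0.055 for start regions. These values give no sign that the numbers pair the libraries. With 3 libraries a group they cannot exclude it. Of the libraries used, NP-MTAza replicates 1 and 2 are listed with 2 barcode sets and the others with 1. Within the libraries of 1 barcode set NP-MTAza is therefore replicate 3 alone, and its calls there are not read as tests. The Glis2 body differed from PBS by -21.8 points in that library. Of the single bodies followed, Ift46 lost its NP-MTAza call at 10 reads per CpG (limma adjusted p = 0.324). B9d1 lost its F-MTAza call at 10 reads per CpG (limma adjusted p = 0.0533).

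Medians of 7 to 9 reads per CpG make the levels of single CpGs coarse. At this depth 6 start regions and 2 bodies were not tested, and a level of 0 means that no methylated read was seen.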
